A study of Mus musculus with 24 samples.

Results

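Mitotic spindle and kinetochore genes were followed in 4 organs (liver, brain, heart, skeletal muscle) of mice with and without a point mutation in Rap1. The 45 genes were listed by name, and each is represented by 1 non-control probe, the one with the highest mean over the 24 arrays, found through the accession of the probe. All 45 were on the array, among 21368 named genes. The list holds 8 genes of microtubule attachment at the kinetochore, 4 of the spindle assembly checkpoint and 4 of the chromosomal passenger complex. It also holds 8 mitotic kinases, cyclins and their phosphatase, 10 spindle motors and microtubule proteins and 4 genes of cytokinesis. The others are 4 genes of chromosome structure and 3 grouped here with the anaphase promoting complex.

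Total RNA came from 6 male mice, 3 WT (WT1, WT2 and WT3) and 3 homozygous for the mutation (Rap1 KI/KI, here KI1, KI2 and KI3), and each mouse gave all 4 tissues. The Rap1 KI/KI mice carry a knockin allele made with CRISPR/Cas9, in which an arginine replaces an isoleucine of RAP1 that binds the telomere protein TRF2, and the line was backcrossed to C57BL/6N. The allele is in every cell, so no promoter or Cre limits it. By the study's account the WT mice were littermate controls, and the labels do not tie single mice to a litter. The age was 5 months for WT1 and KI1 and 2 months for WT2, WT3, KI2 and KI3, so each group of 3 holds 1 older mouse. RNA of each tissue of each mouse was hybridized to 1 array, which gave 3 arrays for each genotype and tissue. Brain and liver RNA was purified with another kit than heart and muscle RNA.

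A dividing cell condenses its chromosomes, builds a spindle of microtubules and attaches each chromosome to it through a kinetochore, a protein platform on the centromere. The spindle assembly checkpoint holds the anaphase promoting complex back until all kinetochores are attached, and this ubiquitin ligase then removes cyclin B and the links between sister chromatids. Most of these genes are transcribed in late G2 and mitosis, and their transcripts are known as markers of proliferating cells. In adult mice, hepatocytes divide rarely, cardiomyocytes, muscle fibres and neurons are postmitotic, and the dividing cells of these organs are mainly stromal, immune, endothelial and progenitor cells. Bulk RNA cannot tell fewer cells with a transcript from less transcript in each cell.

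Levels are log2 signals from which the 75th percentile of each array was subtracted, so a level of 0 equals that percentile. A difference of 1 is a doubling of the signal. Single levels are compared between samples for a probe and never between probes. A median of the list on an array is the level of the gene in its middle, which can differ between arrays. A probe counts as measured on an array when the scanner software marked it well above background, and 26 of the 45 genes were well above background on all 24 arrays. Ttk, Ncapg, Aurkb, Cdc25c and Dlgap5 were so on at most 3 arrays, and no level of theirs is read as expression. No member value was saturated or missing. On the liver arrays 58.8% to 66.2% of all probes were measured, on the brain arrays 62.6% to 72.7%, on the heart arrays 59.1% to 65.6% and on the muscle arrays 56.5% to 61.8%. Terf2ip, the gene of RAP1, was measured on each of the 24 arrays, at levels of 0.69 to 2.07. Its probe does not tell the mutant from the WT transcript, so it is no check of the genotype. All 5 hepatocyte, 5 neuron, 5 cardiomyocyte and 5 skeletal muscle fibre markers were well above background on every array of their own tissue. The heart of WT1 stood apart in 2 of them, the atrial light chains Myl7 (-2.41, against 5.03 to 8.33 in the other 5 hearts) and Myl4 (1.60 against 8.03 to 9.34), while Myh6, Tnni3 and Tnnt2 were within the range of the others.

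Promoters of the genes that led the liver comparison are shown because many mitotic genes share 2 motifs near their start. These are the cell cycle genes homology region (CHR, TTTGAA or TTCGAA), which the DREAM and MuvB complexes bind, and the CCAAT box, which NF-Y binds. RefSeq windows (GRCm38.p6) of 300 bases, from 250 before to 50 after the annotated start, were held for 36 of the 45 genes, in 39 windows, since a gene can have more than 1 start. TTTGAA stood on either strand in 30 of the 39 windows (76.9%) and in 17.9% of all 32851 windows, and TTCGAA in 3 windows (7.69%) against 1.56%. CCAAT stood in 29 windows (74.4%) against 37.4% of all. A CHR and a CCAAT box stood together in 26 of the 39 windows, and in 7.52% of all windows. The E2F motif TTTCGCGC was in 1 window (2.56%, that of Cdk1) against 0.323% of all, and TTTGGCGC in 0 windows against 0.514%. All motifs were searched on both strands, TTCGAA reads the same on both, and a window can hold several. A match is a run of letters and not a measured binding site. Of the 8 genes named in the liver comparison below, 5 had a window. The 120 bases upstream of the start are given for the 4 that hold a CHR or a CCAAT box in their window, with CHR and CCAAT letters (or their reverse complements TTCAAA and ATTGG) in capitals, written in the direction of transcription.
Kif2c (chr4:117178773-117178892, minus strand): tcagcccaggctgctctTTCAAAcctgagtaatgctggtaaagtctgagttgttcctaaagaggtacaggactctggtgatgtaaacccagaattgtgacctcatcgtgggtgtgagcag
Prc1 (chr7:80294356-80294475, plus strand): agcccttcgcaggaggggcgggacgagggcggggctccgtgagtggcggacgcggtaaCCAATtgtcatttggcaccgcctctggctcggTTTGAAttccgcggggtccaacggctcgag
Bub1 (chr2:127831860-127831979, minus strand): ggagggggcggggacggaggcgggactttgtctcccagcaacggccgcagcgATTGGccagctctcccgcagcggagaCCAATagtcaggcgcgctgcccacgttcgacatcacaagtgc
Plk1 (chr7:122159315-122159434, plus strand): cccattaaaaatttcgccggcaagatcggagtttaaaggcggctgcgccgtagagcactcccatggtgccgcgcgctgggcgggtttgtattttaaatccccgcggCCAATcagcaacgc
In the second of 2 windows of Prc1, shown here, the CCAAT box begins 62 bases and the CHR 30 bases before the start. In Bub1 and Plk1 the CHR lies after the start, beginning at base 15 (TTCGAA) and base 31 (TTTGAA), outside the stretch shown. The window of Nusap1 held none of the motifs searched.

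The first comparison asked whether the genotypes differed in each tissue. In the liver, most of the mitotic genes were higher in the Rap1 KI/KI mice, by a median of 0.55 on the log2 scale over all 45 genes, while the median over all probes was -0.08. The mean of the Rap1 KI/KI livers lay above that of the WT livers for 40 of the 45 genes (88.9%) and for 40.5% of all probes. Of the 39 genes tested, those measured on 3 or more livers, 18 were higher at an unadjusted p under 0.05 and 0 lower. Among all 35240 probes tested, 1.25% were higher and 0.883% lower at that threshold. No gene of the list passed the adjusted threshold of 0.05 in limma, and neither did any of the other probes (0%). The lowest adjusted p of the genes in the liver was 1.00.

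**Figure D1:**
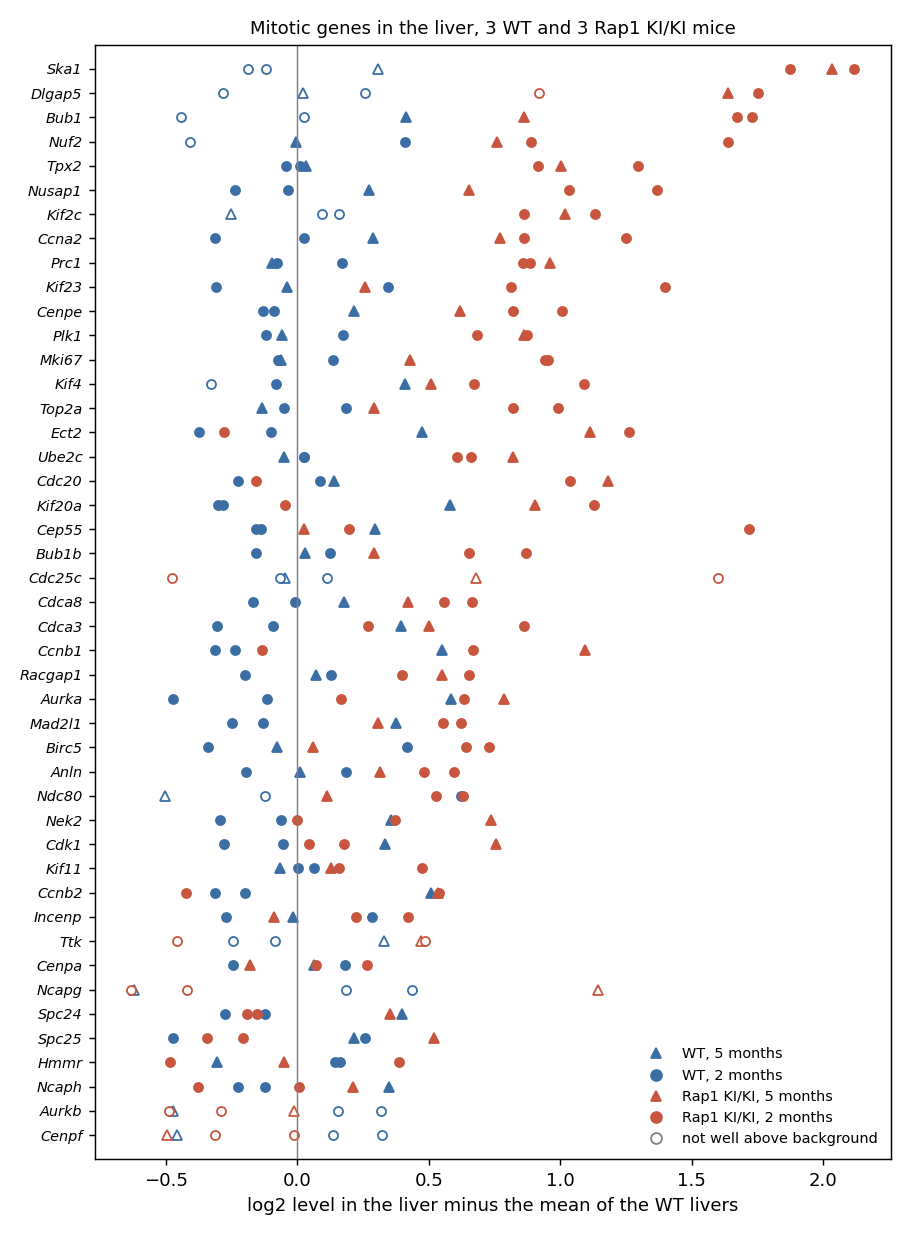
Log2 level of each of the 45 mitotic genes in each liver, minus the mean of the 3 WT livers for that gene (x axis, in log2 units), with genes ordered by the difference between the genotype means. Blue marks stand for WT and red for Rap1 KI/KI livers, triangles for 5-month and circles for 2-month mice, and open marks for values not well above background. In the upper part of the plot, from Ska1 to Prc1, every red mark lies to the right of every blue one.

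Microtubule attachment genes included the largest difference in the liver. Ska1, a subunit of the complex that holds kinetochores on shrinking microtubule ends, was not well above background in the WT livers, at -6.58, -7.07 and -7.01, and was well above it in the Rap1 KI/KI livers, at -4.86, -5.02 and -4.77. The groups did not overlap, and the signal, set against the dimmest probe that still counted as measured on a WT array, was higher by at least 2.14-fold in the mutant livers, with a fitted log2 difference of 2.01 (SE 0.21, limma adjusted p = 1.00, n = 3 per group). Because Ska1 was measured on the Rap1 KI/KI livers only, its passing of the filter depended on that group. Nuf2 and Cenpe, the first a subunit of the NDC80 complex and the second a kinesin of the kinetochore, were also among the 18 genes, with log2 differences of 1.10 and 0.82. Spc24 and Spc25, the other end of the NDC80 complex, differed by 0.00 and -0.01, and Cenpa, the histone of centromeres, by 0.05. Of the 8 attachment genes, 3 were among the 18.

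Among the checkpoint genes, Bub1, a kinase of the unattached kinetochore, stood at -5.85, -6.24 and -6.71 in the WT livers and at -5.40, -4.54 and -4.60 in the Rap1 KI/KI livers. It was well above background on 1 WT and 3 Rap1 KI/KI livers, the groups did not overlap, and the log2 difference was 1.42 (SE 0.33, limma adjusted p = 1.00). Bub1b differed by 0.60 and was also among the 18 genes, and Mad2l1 by 0.49. Of the chromosomal passenger complex, which corrects wrong attachments, Cdca8 was among the 18, with a log2 difference of 0.55.

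The spindle motors and microtubule proteins had 6 of their 10 members among the 18 genes, namely Tpx2, Kif2c, Prc1, Nusap1, Kif4 and Kif23. Tpx2, which activates Aurora A on spindle microtubules, stood at -3.88, -3.96 and -3.90 in the WT livers and at -2.91, -2.62 and -3.00 in the Rap1 KI/KI livers. The difference was 1.07 (SE 0.19, limma adjusted p = 1.00). A second probe of Tpx2 was well above background on 0 of the 6 livers. Prc1, which bundles the antiparallel microtubules of the central spindle, was at -2.39, -2.37 and -2.13 in WT livers and at -1.34, -1.42 and -1.44 in Rap1 KI/KI livers, which differed by 0.90 (SE 0.19, limma adjusted p = 1.00). Both Tpx2 and Prc1 were well above background on all 6 livers, with no overlap. Nusap1, a microtubule-stabilizing protein of the spindle, was at -2.92, -3.42 and -3.22 in WT and at -2.54, -2.16 and -1.82 in Rap1 KI/KI livers, and also did not overlap (difference 1.02, SE 0.26, limma adjusted p = 1.00). Kif2c, a kinesin that takes microtubules apart at centromeres, was well above background in the Rap1 KI/KI livers alone, at -4.85, -4.74 and -5.01 against -6.12, -5.78 and -5.71. That is at least a 1.89-fold difference (fitted log2 difference 1.00, SE 0.21, limma adjusted p = 1.00). Kif2c, like Ska1, passed the filter through the Rap1 KI/KI livers. Its second probe, also well above background on only 3 livers, differed by 1.23. Hmmr differed by -0.05 and Kif11, the motor that pushes the spindle poles apart, by 0.25.

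Of the mitotic kinases and cyclins, all 8 had a higher mean in the Rap1 KI/KI livers (Cdc25c below background) and 2 were among the 18 genes. Plk1, a kinase of mitotic entry and spindle poles, was at -1.96, -1.73 and -2.02 in WT livers and at -1.04, -1.03 and -1.22 in Rap1 KI/KI livers. Ccna2, the cyclin of S phase and G2, was at -1.39, -1.99 and -1.65 and at -0.91, -0.43 and -0.82. Neither gene overlapped between the genotypes, and the log2 differences were 0.81 (SE 0.19) and 0.96 (SE 0.24), each with a limma adjusted p of 1.00. The differences of Cdk1, the kinase that drives entry into mitosis, and of its cyclins Ccnb1 and Ccnb2 were smaller, at 0.33, 0.54 and 0.22, and their groups overlapped. The remaining genes among the 18 were Racgap1 (0.53) of cytokinesis, Top2a (0.70) and Mki67 (0.77) of chromosome structure and Ube2c (0.70), the ubiquitin-conjugating enzyme of the anaphase promoting complex.

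All 3 Rap1 KI/KI livers contributed. KI1 lay above every WT liver in 33 of the 45 genes, KI2 in 34 and KI3 in 27, while 19.4%, 13.3% and 17.6% of all probes did so on the same arrays. The 3 WT livers had 34 to 36 of the genes well above background and the 3 Rap1 KI/KI livers 39 to 40. The signal behind dim probes also differed, with 58.8% of all probes well above background in WT2 and WT3 and 65.3% in WT1, against 63.1% to 66.2% in the Rap1 KI/KI livers, and the part of this in the result was not tested. Counting the genes well above background on all 6 livers, 14 were higher at an unadjusted p under 0.05. With normexp background correction 9 were, and the median difference was 0.22, against -0.10 over all probes tested. Without KI2 10 were, and without any other mouse 15 to 20. The shares of all probes in these settings are not given, so these counts show only how the number for the list moved.

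Markers of cells that could bring mitotic transcripts into the liver were read beside this result. Erythroid markers were well above background for 5 to 7 of the 8 on the array, with a summed linear level of 476 to 624 in WT and 571 to 631 in Rap1 KI/KI livers, and Rhag was below background on all 6. Neutrophil and progenitor markers (7 to 9 of 9) summed to 7.71 to 9.14 and 8.77 to 10.9, and B cell markers (4 to 5 of 7) to 1.57 to 2.01 and 1.46 to 1.79, with Igll1 and Rag1 below background on all livers. Macrophage markers summed to 63.3 to 88.7 in WT livers and to 65.7, 121 and 78.2 in KI1, KI2 and KI3. Endothelial markers summed to 14.2 to 15.9 and 12.6 to 14.4, T cell markers to 46.8 to 73.5 and 54.1 to 55.0, and fibroblast markers to 11.3 to 20.9 and 14.6 to 22.4. Of these lists none separated the genotypes completely. Hepatocyte markers summed to 2000 to 3266 in WT and 1631 to 2291 in Rap1 KI/KI livers. The part of these cells in the mitotic gene levels was not tested.

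Other genes of cell division were taken from 9 lists, and none of their genes passed the adjusted threshold in the liver (0% of all probes). At an unadjusted p under 0.05, where 1.25% of all probes were higher and 0.883% lower, 3 of the 16 other kinesins and spindle genes tested were higher, Spag5 (0.75), Kifc1 (0.66) and Aspm (0.58), and Kif2a, a kinesin that is also used by non-dividing cells, was lower (-0.54). Of 14 other outer kinetochore and checkpoint genes, Ska3, the partner of Ska1, and Kntc1 were higher, by 1.27 and 0.69. Ska3 was again well above background in the 3 Rap1 KI/KI livers only, at least 1.24-fold higher there, and passed the filter through them. Of the inner kinetochore genes 2 of 15 were higher, Cenph (0.90) and Cenpn (0.50), and of the mitotic entry regulators 2 of 12, Pbk (1.40) and Melk (0.90). Espl1 (0.70), the separase, was higher among 18 condensin and cohesin genes, and Ccng1 (0.57), a p53 target, among 13 CDK inhibitors and arrest genes. None of the 18 DNA replication genes, 15 subunits of the anaphase promoting complex and 17 cell cycle transcription regulators passed that threshold in either direction. The median log2 difference was 0.36 over the other kinesins and spindle genes, 0.26 over the inner kinetochore and 0.23 over the outer kinetochore, against 0.15 over condensin and cohesin, 0.09 over DNA replication, 0.08 over the transcription regulators, 0.06 over the mitotic entry regulators, 0.01 over the subunits of the anaphase promoting complex and -0.04 over the CDK inhibitors.

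**Figure D2:**
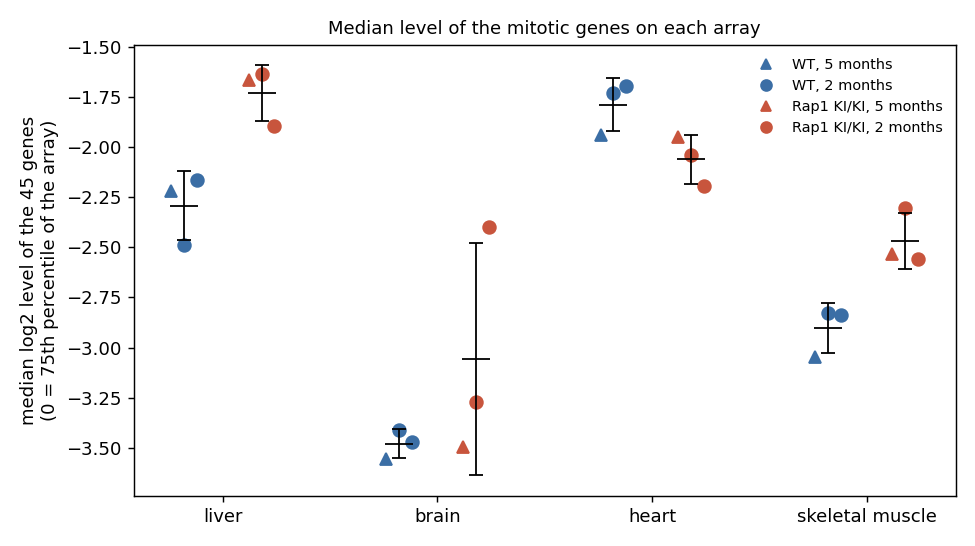
Median log2 level of the 45 mitotic genes on each array (y axis, where 0 is the 75th percentile of the array), by tissue. Blue marks are WT and red marks Rap1 KI/KI mice, triangles 5-month and circles 2-month mice, and black bars the mean and SD of 3 mice. In the liver and the muscle the 3 Rap1 KI/KI arrays lie above the 3 WT arrays, and in the brain KI3 stands apart at -2.40. In the heart the Rap1 KI/KI arrays lie below the WT arrays, with KI1 at -1.95 next to WT1 at -1.94. Each median is the level of the gene in the middle of the list, which can differ between arrays. In the heart it is Aurka on every array but WT3.

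In skeletal muscle 26 of the 45 genes were well above background on all 6 arrays and 8 on none, and 32 were tested. The median difference over all 45 genes was 0.28 (0.081 with normexp correction), against -0.10 over all probes, and the Rap1 KI/KI mean was above the WT mean for 35 genes (77.8%), against 38.7% of all probes. At an unadjusted p under 0.05, 6 genes were higher and 0 lower, while 1.44% of the 32382 probes were higher and 1.04% lower. No gene passed the adjusted threshold in limma (0% of all probes). The median level of the list was -3.05, -2.83 and -2.84 in WT1, WT2 and WT3 and -2.54, -2.31 and -2.56 in KI1, KI2 and KI3, with no overlap. The gene in the middle of the list was not the same on all of these arrays.

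Ccnb1, the cyclin that CDK1 needs to start mitosis, stood at -5.46, -4.29 and -4.89 in the WT muscles, where 2 of 3 were well above background, and at -3.45, -3.52 and -3.73 in the Rap1 KI/KI muscles. The difference was 1.31 (SE 0.31, limma adjusted p = 0.94) with no overlap. The other probes of Ccnb1, each well above background on 1 of 6 muscles, differed by -0.97 and 0.57. Cdk1 itself was not well above background in any WT muscle, at -7.38, -5.72 and -5.47, and was so in all Rap1 KI/KI muscles, at -5.22, -4.54 and -4.86, at least 1.18-fold higher (fitted log2 difference 1.31, SE 0.51, limma adjusted p = 0.94). As with Ska1 in the liver, it passed the filter through the Rap1 KI/KI arrays. Mki67, which keeps mitotic chromosomes apart, was well above background on all 6 muscles, at -1.52, -1.12 and -0.96 in WT and -0.27, -0.33 and -0.48 in Rap1 KI/KI mice. Its difference was 0.84 (SE 0.22, limma adjusted p = 0.94), and its second probe differed by 0.75. Cenpe (0.99, SE 0.33), Ccna2 (0.55, SE 0.21) and Nusap1 (0.54, SE 0.22) also did not overlap, each with a limma adjusted p of 0.94. Tpx2, which was brighter in muscle than in the other tissues, ran the other way, with WT muscles at -0.11, -0.84 and -0.61 and Rap1 KI/KI muscles at -0.15, -1.29 and -2.56.

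Markers of blood, marrow and other cells differed among the muscles. The summed level of 9 neutrophil markers was 96.1 in KI1 and 14.0 in KI3, against 3.54 in KI2 and 1.60 to 3.89 in the WT muscles. KI2, which had the highest median level of the mitotic genes, had the highest sum of macrophage markers (26.4, against 10.1 to 18.5 in the other muscles) and of fat cell markers (865, against 89.6 to 718). Of the 8 erythroid markers 4 to 6 were well above background, and their sum was 184 to 325 in WT and 396 to 596 in Rap1 KI/KI muscles, without overlap. Satellite cell markers leaned the other way, at 7.21 to 10.0 in WT and 5.58 to 8.15 in Rap1 KI/KI muscles. Endothelial markers (23.1 to 31.0 and 19.7 to 36.1) and fibroblast markers (108 to 520 and 149 to 387) overlapped between the genotypes. KI3 also held 3 of 6 neuroblast markers and a sum of 0.437, against 0.129 to 0.169 in the other muscles. Markers of mature neurons were raised there too, with a sum of 48.2 against 11.9 to 19.2. Among them Rbfox3 was at 2.99, against -5.38 to -2.08 in the other muscles. The raised markers of KI3 were thus not those of neuroblasts alone. The part of these cells in the mitotic genes was not tested. The count of 6 became 3 without KI3 and 2 without WT1, and 5 to 7 without any other mouse.

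In the brain, 37 genes were tested, and the difference came mainly from 1 mouse. The median over the 45 genes was 0.29, against -0.03 over all probes, and -0.02 without KI3. At an unadjusted p under 0.05, 2 genes were higher and 0 lower, against 1.11% and 1.51% of the 37836 probes, and none passed the adjusted threshold in limma (0% of all probes). KI3 was the highest of the 6 brains for 32 of the 45 genes (71.1%), and for 24.9% of all probes. Relative to the mean of the WT brains, the genes tested had a median of 0.97 in KI3, 0.29 in KI2 and -0.26 in KI1.

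**Figure D3:**
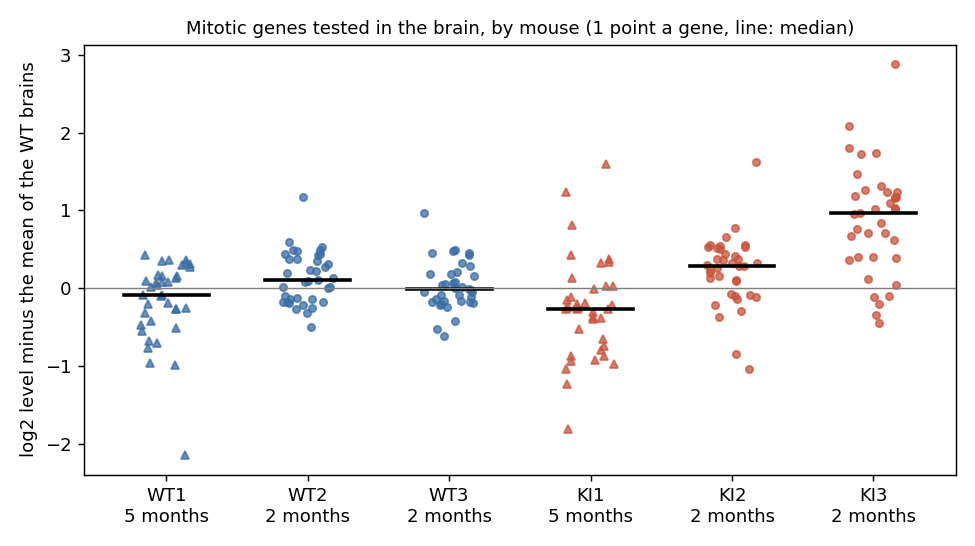
Log2 level of each of the 37 mitotic genes tested in the brain minus the mean of the 3 WT brains for that gene (y axis, in log2 units), by mouse and age. A point is a gene, and the black line is the median of the mouse, which is 0.97 in KI3, 0.29 in KI2 and -0.26 in KI1.

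Cdk1 was not well above background in the WT brains, at -6.58, -6.36 and -7.26, and was so in the Rap1 KI/KI brains, at -5.50, -5.11 and -3.85. The mutant brains exceeded the WT brains by at least 3.03-fold, with a fitted difference of 1.91 (SE 0.48, limma adjusted p = 1.00), and the filter was passed through that group. Another probe of Cdk1, well above background on 4 of the 6 brains, differed by -0.25. Nusap1 was at -4.77, -4.78 and -4.49 in WT and at -4.34, -4.12 and -3.21 in Rap1 KI/KI brains, with no overlap and a difference of 0.79 (SE 0.33, limma adjusted p = 1.00). Without KI3 the Nusap1 difference was 0.45. On slide 1, which held WT1 and KI1, Cdk1 differed by 1.08, Nusap1 by 0.42 and the median of the 45 genes by -0.12. On slide 2, with 2 brains of each genotype, the values were 2.33, 0.97 and 0.50.

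KI3 brain stood apart in other transcripts as well. The 5 fibroblast markers summed to 35.6 there and to 7.61 to 11.9 in the other 5 brains, the 6 macrophage markers to 86.0 against 32.3 to 42.0, and the 5 endothelial markers to 5.74 against 3.54 to 4.11. Neuron markers summed to 239 in KI3 and 285 to 382 in the others. The 6 neuroblast markers, all well above background on every brain, summed to 2.71 to 3.54 in WT and 4.12 to 4.60 in Rap1 KI/KI brains, with KI1 at 4.49. They did not move together. In KI1 Neurod1 (1.32) was the highest of all brains, while Dcx (-0.33), Sox11 (-0.67) and Igfbpl1 (-4.62) were the lowest. The sum is therefore not read as a difference in neuroblasts. The part of these cells in the mitotic genes was not tested.

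In the heart, 39 genes were tested. The median level of the list was -1.94, -1.73 and -1.69 in WT1, WT2 and WT3. It was -1.95, -2.04 and -2.19 in KI1, KI2 and KI3, with KI1 and WT1 nearly equal. This median was the level of Aurka in every heart but WT3, where it was that of Anln. The order of the hearts is therefore not read as a trait of the list. The median of the differences of the 45 genes was -0.03, against -0.09 over all probes, and the Rap1 KI/KI mean was above the WT mean for 19 genes (42.2%), with 42.2% of all probes. At an unadjusted p under 0.05, 3 genes were higher and 0 lower, against 5.09% and 2.42% of the 34848 probes, and none passed the adjusted threshold in limma (0% of all probes). A count of 3 among 39 is near the share of all probes, so it is not read as a result about the list. Nusap1 stood at -0.42, -0.63 and -1.55 in WT and at 0.28, -0.06 and 0.28 in Rap1 KI/KI hearts, with no overlap and a difference of 1.03 (SE 0.33, limma adjusted p = 0.65). Ube2c was at 0.71, 0.31 and 0.44 and at 1.36, 0.79 and 1.10, a difference of 0.59 (SE 0.24, limma adjusted p = 0.65). Its second probe, also well above background on all hearts, differed by 0.57.

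Anln, the anillin of the cleavage furrow, was at -1.26, -0.57 and -1.69 in WT hearts and at 0.42, -0.81 and 0.35 in KI1, KI2 and KI3, so that the groups overlapped at KI2 (difference 1.16, SE 0.43, limma adjusted p = 0.65). The same KI1 and KI3 hearts had fat cell markers at a sum of 167 and 363, against 35.2 in KI2 and 1.08 to 29.9 in the WT hearts, with 4 to 5 of 5 well above background, and endothelial markers summed to 49.2 to 67.5 in WT and 33.9 to 48.6 in Rap1 KI/KI hearts, with all 5 well above background. The part of these cells in the values was not tested. On slide 2, with 2 hearts of each genotype, the differences were 0.63 for Nusap1, 0.72 for Anln and 0.56 for Ube2c, and on slide 3, with 1 of each, 1.83, 2.04 and 0.66. Without WT1, whose heart lacked most of the atrial light chain signal, the differences were 1.25 for Nusap1, 1.12 for Anln and 0.71 for Ube2c, 2 genes were higher at an unadjusted p under 0.05 and the median was -0.08. Without KI1 none of the 39 genes reached an unadjusted p under 0.05 upward, and without KI3 1 did. Spc24 was lower in KI3 (-2.60) than in the other 5 hearts (-0.93 to 0.27).

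Nusap1 was among the genes at an unadjusted p under 0.05 in all 4 tissues, each time with the Rap1 KI/KI mice above the WT mice in every pair of mice. The brain value lay just under that threshold and no brain gene reached it with normexp correction, and no heart gene did so upward without KI1. The tissues came from the same 6 mice, so these are 4 sets of values from 3 and 3 animals. Nusap1 was singled out after its values were seen. The share of all probes with this pattern in all 4 tissues is not given, so it is not read as a trait of Nusap1.

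**Figure D4:**
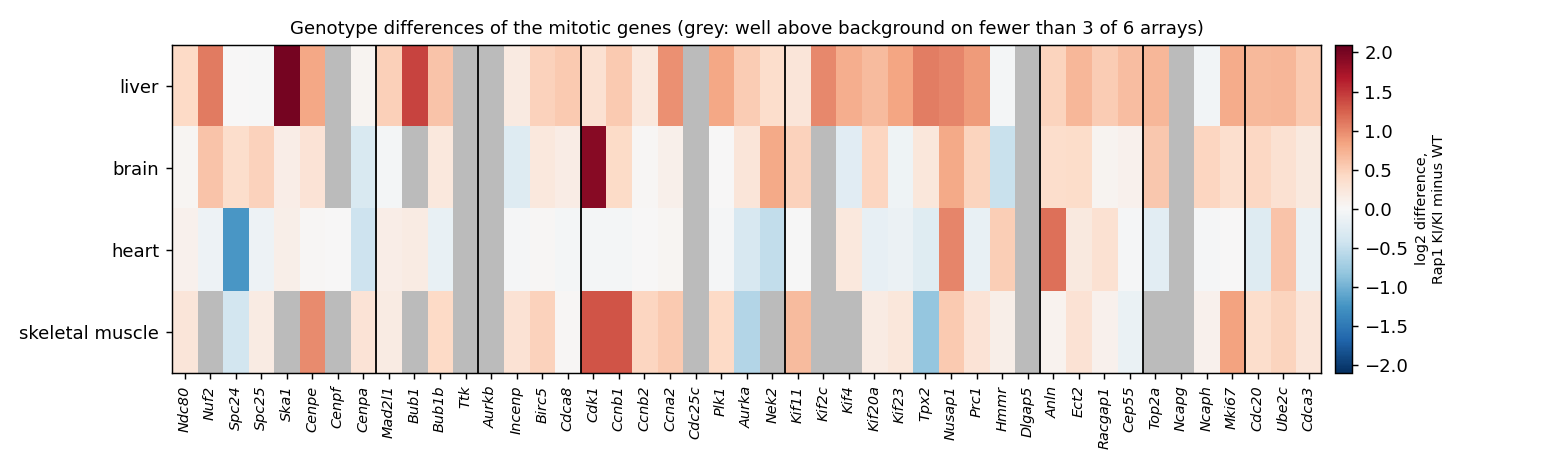
Mean log2 level of Rap1 KI/KI minus that of WT mice (color, red higher in Rap1 KI/KI) for each of the 45 mitotic genes and each tissue, ordered by role with black lines between the groups of genes. Grey fields were well above background on fewer than 3 of 6 arrays. The liver row is red for nearly every gene, the muscle row has Cdk1 and Ccnb1 at 1.31, the brain row has Cdk1 at 1.91, and the heart row is pale apart from Nusap1, Anln, Ube2c and a few lower genes such as Spc24.

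The difference of the genotype effect among the 4 tissues was tested in 1 fit of all 24 arrays. No gene of the 40 tested passed the adjusted threshold (0% of 42463 probes, lowest adjusted p of the genes 1.00), and Cdk1, Aurka and Tpx2 did at an unadjusted p under 0.05, as did 2.93% of all probes. A genotype difference in the liver and not in the heart is therefore not shown to differ between them for any of these genes.

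The second comparison asked how the same genes differed among the tissues. These differences passed the adjusted test for most genes, as they did for most of all probes in each contrast except heart against muscle. They ran in different directions for genes of the same complex. Of the 40 genes well above background on at least 3 arrays of a tissue, 19 had their highest mean in the heart, 14 in the liver, 5 in the brain and 2 in the muscle. The heart group held Cenpa, Cenpf, Mki67, Nusap1, Ube2c, Top2a, Bub1, Bub1b, Plk1, Prc1, Kif4, Kif20a, Kif23, Birc5, Ccna2, Cep55, Racgap1, Ndc80 and Ska1. The liver group held Spc24, Spc25, Nek2, Cdk1, Ccnb1, Ccnb2, Ect2, Mad2l1, Cdca8, Kif11, Kif2c, Ncaph, Cdc20 and Cdca3. Anln, Incenp, Nuf2, Cenpe and Hmmr were highest in the brain, and Aurka and Tpx2 in the muscle. The share of all probes with their highest mean in each tissue is not given, so these counts are not read as a trait of the list.

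**Figure D5:**
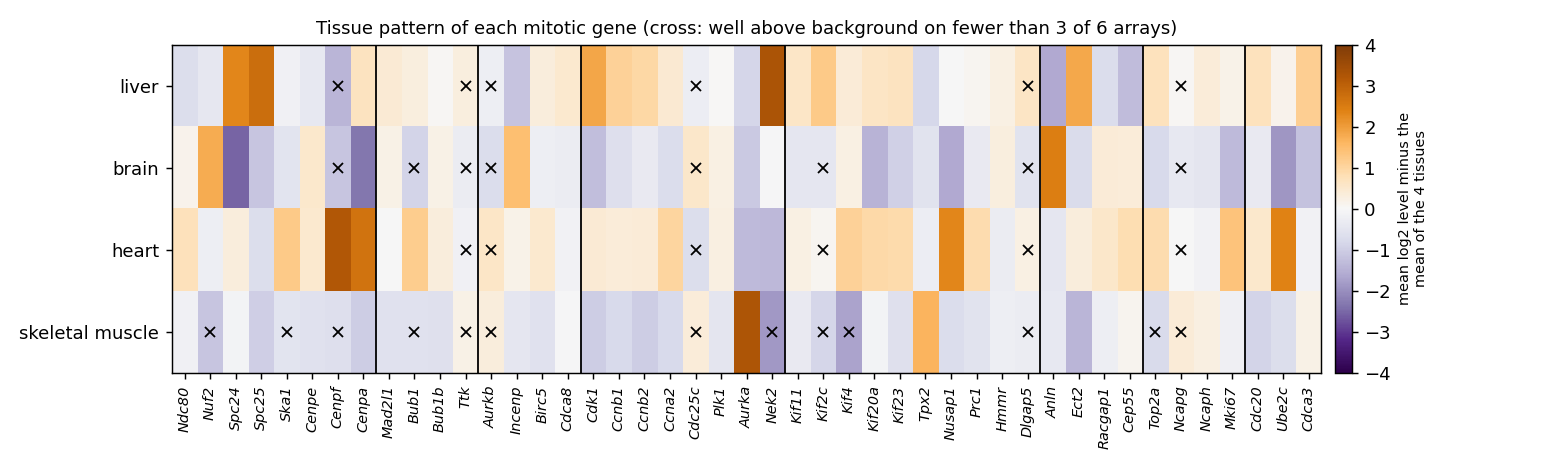
Mean log2 level of each mitotic gene in each tissue (6 arrays) minus its mean over the 4 tissues (color, orange higher), ordered by role with black lines between the groups. Crosses mark genes well above background on fewer than 3 of the 6 arrays of a tissue. The darkest orange fields are Nek2, Spc25 and Spc24 in the liver, Anln in the brain, Cenpf, Cenpa, Nusap1 and Ube2c in the heart and Aurka in the muscle.

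Liver exceeded brain in 23 of the 40 genes and was lower in 6, against 45.6% and 33.4% of all probes. Spc24 averaged 1.18 ± 0.29 (SD, n = 6) in the liver and -3.69 ± 0.28 in the brain, a 29.2-fold ratio (log2 difference 4.87, SE 0.29, limma adjusted p = 6.46e-12). Its partner Spc25, which forms the inner end of the NDC80 complex with it, averaged 2.87 ± 0.39 and -1.06 ± 0.50, a 15.2-fold ratio (limma adjusted p = 6.14e-12). Anln ran the other way, at -1.75 ± 0.30 and 2.31 ± 0.49, 16.7-fold higher in the brain (limma adjusted p = 1.03e-11). Anillin is also known from the septin scaffold of myelin.

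Liver exceeded heart in 11 genes and was lower in 14, against 34.4% and 32.3% of all probes. Nek2, a kinase of centrosome separation, averaged -0.57 ± 0.37 in the liver and -5.23 ± 0.43 in the heart, where 4 of 6 arrays were well above background, a 25.3-fold ratio (limma adjusted p = 6.36e-10). Spc25 was 10.9-fold higher in the liver than in the heart (adjusted p = 7.57e-11) and Nusap1 5.03-fold lower (adjusted p = 9.93e-09). Against muscle, the liver was higher in 26 genes and lower in 6, with 34.9% and 36.3% of all probes. Spc25 was 13.5-fold (adjusted p = 1.82e-11) and Ect2, the activator of RhoA at the cleavage furrow, 9.54-fold higher in the liver (adjusted p = 9.06e-09). With normexp correction the split against muscle was 15 higher and 13 lower.

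Heart exceeded brain in 22 genes and was lower in 4, while 39.9% of all probes were higher and 27.7% lower in the heart. Cenpa averaged 2.23 ± 0.33 in the heart and -2.77 ± 0.55 in the brain, a 31.9-fold ratio (log2 difference 5.00, SE 0.25, limma adjusted p = 1.65e-12). Ube2c (19.6-fold, adjusted p = 1.45e-11) and Nusap1 (15.3-fold, adjusted p = 5.67e-12) were also higher in the heart, and the second probe of Ube2c had the same order of the tissues, from 0.46 in the heart to -3.58 in the brain. Cenpf, a large coiled-coil protein of the outer kinetochore, was well above background on all 6 hearts (-4.21 to -2.51) and on 0 of the 18 other arrays. It was at least 7.94-fold higher in the heart than in the liver, 8.20-fold than in the brain and 4.35-fold than in the muscle.

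Heart exceeded muscle in 29 genes and was lower in 2, against 21% and 22.4% of all probes, and 16 and 5 with normexp correction. Cenpa was 12.7-fold (adjusted p = 4.46e-10) and Ube2c 8.42-fold higher in the heart (adjusted p = 6.08e-09). Aurka, the centrosome kinase Aurora A, averaged 2.72 ± 0.51 in the muscle and -1.89 ± 0.24 in the heart, 24.5-fold higher in the muscle (limma adjusted p = 4.86e-13), and Tpx2, its activator, was the other gene that was lower in the heart. Brain exceeded muscle in 12 genes and was lower in 10, against 28.7% and 41.4%, but in 6 and 21 with normexp correction. There Aurka was 20.4-fold (adjusted p = 4.16e-13) and Spc24 5.35-fold higher in the muscle (adjusted p = 3.05e-07), and Anln 7.20-fold higher in the brain (adjusted p = 3.55e-09). Aurka was 17.4-fold higher in the muscle than in the liver (adjusted p = 3.83e-13). Since the kits went with pairs of tissues, kit and tissue cannot be told apart between liver or brain and heart or muscle.

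Members of a complex or a kinase pathway did not share 1 tissue pattern. Of the NDC80 complex, Spc24 and Spc25 were highest in the liver, Nuf2 in the brain and Ndc80 in the heart. Of the chromosomal passenger complex, Incenp, the scaffold, was brightest in the brain (2.60 ± 0.22), followed by heart (1.33 ± 0.19), muscle (0.70 ± 0.21) and liver (-0.03 ± 0.26), and all 6 contrasts passed the adjusted test, while Birc5 was highest in the heart and Cdca8 in the liver. Incenp, Cenpa, Nusap1 and Ube2c were the genes that differed in all 6 contrasts, and the share of all probes that did so is not given. Mki67 averaged 0.77 ± 0.10 in the heart, -0.43 ± 0.47 in the liver, -0.78 ± 0.50 in the muscle and -1.93 ± 0.98 in the brain, and its second probe followed the same order.

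The third comparison set the 2 mice of 5 months against the 4 of 2 months within each tissue, with the genotype in the model. Each genotype has 1 mouse of 5 months. In the brain, 8 of the 37 genes were lower at 5 months at an unadjusted p under 0.05 and 1 was higher, against 3% and 1.95% of all probes, and none passed the adjusted test (0% of all probes). The median over the 45 genes was -0.42, against 0.08 over all probes, and 10 of the 45 were higher at 5 months. Mki67 stood at -2.81 in WT1 and -3.14 in KI1, and at -1.67, -1.82, -1.74 and -0.36 in the 2-month brains WT2, WT3, KI2 and KI3. No 2-month brain reached down to the 5-month ones, and the difference was -1.58 (SE 0.46, limma adjusted p = 0.75). Ccna2 was at -3.18 and -3.15 against -1.98, -2.09, -2.51 and -1.26 (difference -1.21, SE 0.38), and Ect2 at -4.88 and -4.70 against -3.98, -4.13, -3.95 and -3.16 (difference -0.99, SE 0.29). Birc5, the survivin subunit of the passenger complex, differed by -0.81 (SE 0.28), and for these genes too the adjusted p was 0.75. Without KI3, 5 genes in all were under the unadjusted threshold and the median was -0.34. Both 5-month brains lay on slide 1 and the 4 others on slide 2, so age and slide cannot be told apart in the brain.

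In the muscle, where all arrays shared a slide, 4 of 32 genes were lower and 2 higher at 5 months at an unadjusted p under 0.05, against 3.37% and 2.56% of all probes, with none past the adjusted threshold (0%). Kif23, a motor of the central spindle, was not well above background in the 5-month muscles, at -5.25 and -5.65, and was so in the 4 others, at -4.68 to -3.74, so it passed the filter through the younger mice. It was at least 2.11-fold lower at 5 months (fitted difference -1.18, SE 0.30, limma adjusted p = 0.76). Cdk1 (-1.16), Cenpe (-0.73) and Ect2 (-0.72) were the other genes that were lower, each with an adjusted p of 0.79, though Cdk1 was well above background on 1 of 2 older and 2 of 4 younger muscles and Ect2 on 1 of 2 older ones. In the liver, also on a single slide, 5 of 39 genes were higher and 0 lower at 5 months, against 10.9% and 6.38% of all probes, and the median over the 45 genes was 0.02. The adjusted test was passed by 0 genes and by 0.00284% of all probes. Ccnb1 averaged -1.80 at 5 and -2.63 at 2 months (difference 0.83, SE 0.26) and Spc24 1.56 and 0.99 (difference 0.56, SE 0.18), both with a limma adjusted p of 0.24, and Cdk1 (0.57) and Nek2 (0.54) followed. In the heart, 0 of 39 genes reached the unadjusted threshold in either direction, against 1.6% of all probes higher and 5.41% lower, and 0 the adjusted one (0%). The smallest p there was that of Birc5, with a difference of -0.52 (SE 0.23, adjusted p = 0.72).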

How the data were processed

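Scanner files deposited by the authors hold the intensity of each spot of 1-color (Cy3) Agilent arrays, from which Feature Extraction had subtracted background and spatial trends. These had not been normalized across arrays. A second table that the authors deposited gives each probe a score, which is the z-score of the log10 signal within each array (recomputed to within 0.005 on all 24 arrays). Controls and outlier spots were left out, spots of a probe were averaged, and the log2 of the 75th percentile of each array was subtracted. Of 55681 probes, those that 3 or more of 6 arrays measured well above background entered two-sided tests by limma 3.58.1 (R 4.3.3) with Benjamini-Hochberg adjustment over all tested probes. Genotype and age (with genotype as covariate) were fitted within each tissue, tissue and interaction on all 24 arrays in 8 groups. Replicates are separate mice, and their number limits the precision. Single genes with full statistics were those of smallest p (up to 8 for genotype and 4 for age in a tissue) and the 3 largest called differences in a tissue contrast, and other genes were named after their values were seen. The members and lists were chosen with earlier results of these data known. Listed genes Kif14, Ahsp and Trac were not analysed here. The same 6 mice gave all tissues, and deviations of a mouse correlated from -0.32 to 0.38 over 36 pairs of tissues (median 0.09, 17 above 0.1), so the numbers were not taken to pair arrays and the mouse was a block in alternatives only. Other alternatives were quantile normalization, normexp background correction (offset 50), the series table, other filters and probes, age or slide as a block, WT mice alone and each mouse left out. The fits were tested on simulated data. There the genotype fits recovered 0% to 10% of changes of 1 log2 unit, 36% to 64% of changes of 2 and 86% to 90% of changes of 4. A gene that did not pass the adjusted threshold is therefore not shown to be unchanged.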

Additional observations from a re-analysis of the deposited data

How the results depend on the processing

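No gene of the list passed the adjusted threshold for genotype, age or the interaction under any alternative run. Counts under alternatives, here and above, come without the share of all probes in the same setting. They show only how the numbers for the list moved. Medians over the 45 genes changed sign for genotype in the brain without KI3 (-0.02), and for age, where they were near 0, in the heart with quantile normalization (0.03), with the series table (0.01) and with the mean of all probes, and in the liver without WT2 (-0.01) or WT3. The causes were not tested. Over the mice left out in turn, genes at an unadjusted p under 0.05 numbered 10 to 20 higher in the Rap1 KI/KI liver, 0 to 7 higher and 0 to 1 lower in the brain, 0 to 3 higher and 0 to 1 lower in the heart, and 2 to 7 higher and 0 to 3 lower in the muscle. They numbered 1 to 8 for the interaction, and for age 2 to 7 in the liver, 5 to 14 (brain) and 0 to 2 (heart). Genes higher in the liver than in the heart numbered 7 to 11.

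With normexp correction, 9 genes were higher in the Rap1 KI/KI liver (median difference 0.22), 0 in the brain and 1 lower in the heart, the muscle median was 0.081, and 4 genes differed by age in the brain. Tissue contrasts then gave 15 genes higher and 13 lower for liver over muscle, 6 and 21 for brain over muscle, and 16 and 5 for heart over muscle. The mean array medians of WT and Rap1 KI/KI mice became -1.97 and -1.46 (liver), -2.83 and -2.59 (brain), -1.61 and -1.81 (heart), -2.17 and -1.88 (muscle). Quantile normalization gave -2.12 and -1.57 in the liver, with 1 gene lower by genotype and 1 by age in the heart. The mean of all probes of a gene gave -2.90 and -2.27 (liver), -3.72 (Rap1 KI/KI brain), -2.80 and -2.83 (heart), -3.60 and -3.30 (muscle), with 3 genes by age in the liver and 1 in the heart.

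Without a filter 3 genes differed by age in the liver. With probes well above background on all arrays, 1 gene was higher in the Rap1 KI/KI brain, 1 lower in the heart, and 3 differed by age in the muscle. Then 14 were higher in liver than brain, 15 in liver than muscle, 2 higher and 12 lower in brain than heart, and 17 higher in heart than muscle. With age or slide as a block 1 was lower in the Rap1 KI/KI heart. In WT mice alone 6 were higher in liver than heart. When the 24 arrays shared 1 fit, 14 were higher in the liver, and 1 lower in the heart and 1 in the muscle, both with a replicate block for the mouse (consensus correlation 0.03) and with no such block. Dim genes limit what can be seen, as 8 of the 45 were well above background on under 12 arrays.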
